A study of Mus musculus with 11 samples.

Results

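The levels of 7 genes named as induced in mouse islets by pregnancy, none of them part of serotonin synthesis, were followed in virgin and multiparous mice: *Lrrc55*, *Matn2*, *Rerg*, *B3galt1*, *Ehhadh*, *Ivd* and *Tnfrsf11b*. No islets of pregnant mice are among the libraries, so induction in pregnancy cannot be checked here for any of the 7. At 3 weeks after delivery, *Ehhadh* and *Ivd* overlapped between untreated virgin and multipara islets. The 7 genes were found by symbol among the 55536 genes counted in each library. The genes were chosen by their known link to pregnancy and on measured values, with the levels of these same libraries in virgin and multiparous mice already known, so every difference between virgin and multipara is given as a description without a test. Changes with S-961 within virgin or within multipara are built from the same group levels, so their p-values may carry this choice.

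The islets came from female C57BL/6J mice that were 9 weeks old at the start. Virgin mice were compared with multipara, mice that went through 3 pregnancies and whose islets were taken 3 weeks after their last litter. Some mice of both kinds received S-961, a peptide antagonist of the insulin receptor, over 3 days in doses of 100 nmol/kg given 2 times a day, and others received none. Bulk RNA-seq gave 3 libraries of virgin S-961, 4 of multipara S-961, 2 of virgin untreated and 2 of multipara untreated islets. All animals shared the same strain and sex, with no transgene or deletion named in the labels, and whole islets were measured, so that each value sums over every cell type in the isolate. The study counts mice for the S-961 groups, and nothing else states that the libraries are separate animals. The p-values measure only the spread between these samples, which may be technical.

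In pregnancy, placental lactogen and prolactin bind the prolactin receptor of the β cell and act through the kinase JAK2 and the transcription factor STAT5. The β cell then divides more, secretes insulin at lower glucose and makes serotonin through tryptophan hydroxylase. The genes described here have other roles. *Lrrc55* encodes a leucine-rich repeat protein that serves as an auxiliary subunit of the large-conductance (BK) potassium channel. *Matn2* encodes matrilin-2, an adaptor protein of the extracellular matrix. *Rerg* encodes a small GTPase of the Ras superfamily named for its regulation by oestrogen, and *B3galt1* encodes a Golgi enzyme that adds galactose to glycan chains. *Ehhadh* encodes the bifunctional enzyme of peroxisomal β-oxidation, and *Ivd* encodes isovaleryl-CoA dehydrogenase, a mitochondrial enzyme of leucine breakdown. *Tnfrsf11b* encodes osteoprotegerin, a secreted decoy receptor for RANKL and TRAIL.

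The promoters of *Ivd* and *Lrrc55* are shown because lactogens act through STAT5 and because these genes had the smallest and the largest range of levels over the libraries. RefSeq windows (GRCm38.p6, from 250 bases before to 50 bases after a start site) were matched by symbol for 4 of the 7 genes, in 5 windows. They were searched on both strands for the palindrome TTCNNNGAA, the core letters of a STAT5 site, which is marked in capitals. It occurred in 1 of the 5 windows, that of *Ivd*, with its first base 88 bases before the start site (position -88), and in 2726 of all 32851 windows (8.3%). The *Ivd* bases are from the plus strand at chr2:118861744-118861953 and the *Lrrc55* bases from the minus strand at chr2:85198751-85199000, both 5′ to 3′, upstream of the RefSeq start. The *Ivd* stretch was cut to 210 bases to end 1 base before the GENCODE start of the gene, which lies upstream of the RefSeq start. Position -88 is counted from the RefSeq start. The stretch of *Lrrc55* lies 1554 bases upstream of its GENCODE start, so that the annotations differ for both genes.
*Ivd* promoter: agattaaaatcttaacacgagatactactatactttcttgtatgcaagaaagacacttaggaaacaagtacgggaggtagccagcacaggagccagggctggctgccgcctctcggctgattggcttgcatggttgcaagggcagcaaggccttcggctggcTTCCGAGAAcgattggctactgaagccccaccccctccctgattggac
*Lrrc55* promoter: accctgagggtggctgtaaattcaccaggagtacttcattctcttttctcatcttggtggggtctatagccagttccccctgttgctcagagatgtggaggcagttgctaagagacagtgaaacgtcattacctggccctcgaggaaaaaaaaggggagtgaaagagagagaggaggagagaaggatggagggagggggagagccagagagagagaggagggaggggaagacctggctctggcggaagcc
A match in these letters is not a binding site, and its absence from a window says nothing about the factor.

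Total counts were 22028507 to 32234146 per library. Of these counts, *Ins1* and *Ins2* made up 35.3% to 41.4% without S-961 and 13.2% to 20.7% with it, and levels are therefore reported in CPM, with library sizes adjusted by TMM over all 11 libraries. The library labelled multipara S-961 4 stood apart from the other 3 of its group. Its *Mki67* level, a proliferation marker, was 3.93 CPM against 43.5 to 93.9 CPM in multipara S-961 1 to 3 and 3.04 to 13.9 CPM in virgin S-961. For 6 of the 7 genes described here, all but *Ivd*, it lay above multipara S-961 1 to 3, and for *Rerg*, *B3galt1*, *Ehhadh* and *Tnfrsf11b* it lay inside the range of virgin S-961. Its label may be wrong, or the labels of multipara S-961 1 to 3 and of the virgin S-961 libraries may be exchanged, which was not tested. Nothing in the files shows independently of the labels which S-961 library came from a virgin or a multiparous mouse. The direction of every difference between virgin and multipara with S-961 therefore rests on the labels, by which libraries are named throughout. So does every change with S-961 within virgin or within multipara. Differences and group means of the described genes that rest on multipara S-961 4 are given with and without it. The library labelled multipara untreated 1 also differed from its partner, with summed proliferation markers of 89.1 against 8.57 CPM and macrophage markers of 706 against 169 CPM.

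β-cell markers dominated every library, as the label of islets implies, with sums of 455162 to 612554 CPM without S-961 and 120267 to 226035 CPM with it over 8 markers. The markers did not all fall. Averaged over both labels, 4 of 8 were lower at an adjusted p under 0.05 in edgeR, among them *Ins1* (log2 fold change -1.62) and *Ins2* (-1.77). *Mafa* (1.35) and *Nkx6-1* (0.75) were higher, and the list median was -0.32. Acinar markers summed to 42.8 to 108 CPM without S-961 and 1443 to 10233 CPM with it, and all 8 were higher with S-961 at an adjusted p under 0.05 in edgeR's quasi-likelihood test. Alpha-cell markers summed to 26273 to 57192 CPM without and 14124 to 24317 CPM with S-961, delta-cell markers to 3314 to 6097 and 1877 to 3387 CPM, and endothelial markers to 422 to 498 and 336 to 434 CPM. Alpha-cell sums were 50438 to 57192 CPM in virgin and 26273 to 38779 CPM in multipara untreated islets. With S-961 they were 14124 to 15617 CPM in virgin and 16377 to 24317 CPM in multipara. Untreated delta-cell sums were 5116 to 6097 CPM in virgin and 3314 to 3947 CPM in multipara. Untreated acinar sums were 42.8 to 82.2 CPM in virgin and 106 to 108 CPM in multipara. Delta-cell and acinar sums overlapped by parity with S-961. Duct markers summed to 29.7 to 52.8 CPM without and 61.4 to 134 CPM with S-961, with *Spp1* the 1 of 4 that was called higher (list median 0.01). Stromal markers were at 181 to 213 CPM in virgin S-961, 262 to 420 CPM in multipara S-961 and 248 to 280 CPM without S-961, and Schwann cell markers were between 11.4 and 20.4 CPM in all libraries. No marker was at 0 in any library. The part of these cells in the results was not tested, and in bulk RNA fewer cells of a type and less RNA per cell cannot be told apart. No vehicle-injected group is among the libraries, so an effect of injection cannot be told apart from an effect of S-961. A difference in islet isolation between treated and untreated mice was not tested.

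**Figure D1:**
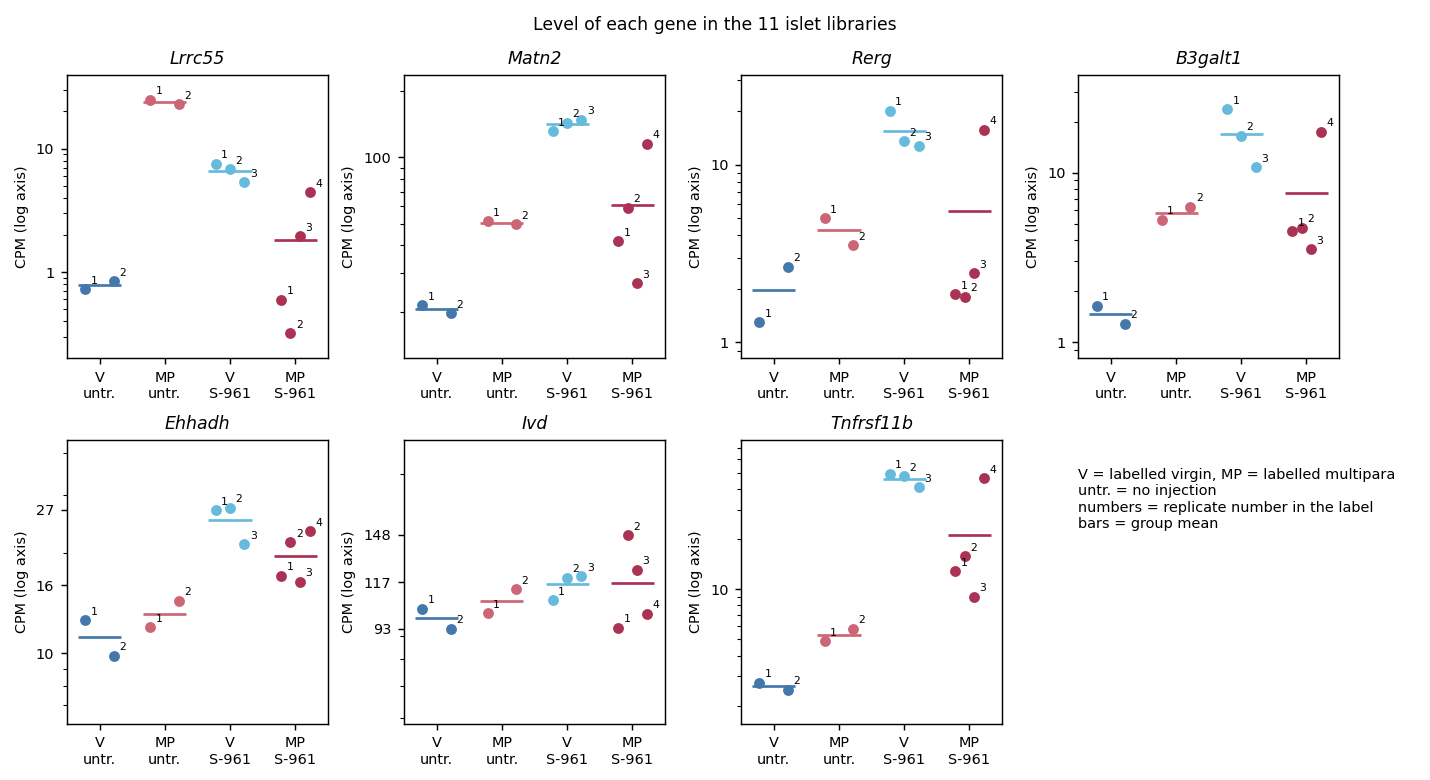
CPM (log10 axis) of the 7 genes in each of the 11 libraries, 1 panel per gene, with a point for each library and a bar for each group mean. *Lrrc55* ran from 0.320 to 24.9 CPM, while *Ivd* stayed between 93.2 and 148 CPM.

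Per kilobase of annotated exon, the 7 genes had mean levels over the 11 libraries of 20.2 CPM for *Ivd*, 11.7 for *Matn2*, 7.68 for *Tnfrsf11b*, 6.18 for *Ehhadh*, 2.69 for *Rerg*, 1.51 for *B3galt1* and 1.07 for *Lrrc55*. The order by variability was nearly the opposite. The highest library exceeded the lowest 77.7-fold for *Lrrc55*, 19.7-fold for *Tnfrsf11b*, 18.3-fold for *B3galt1*, 15.4-fold for *Rerg*, 7.52-fold for *Matn2*, 2.78-fold for *Ehhadh* and 1.59-fold for *Ivd*. All 7 genes passed the filter on low counts in every comparison. The lowest count in any library was 11 reads, for *Lrrc55* in multipara S-961 2.

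*Lrrc55*, the BK channel subunit (ENSMUSG00000075224, chr2:85162334-85197197, minus strand), was the gene with the widest range. The virgin untreated libraries had 0.727 and 0.847 CPM, against 24.9 and 22.8 CPM in multipara untreated. With S-961 it was at 7.54, 6.82 and 5.34 CPM in virgin 1 to 3. In the libraries labelled multipara S-961 1 to 4 it was at 0.596, 0.320, 1.96 and 4.43 CPM. The multipara libraries were thus the highest of all without treatment and all below virgin with S-961. By group means ± SD, multipara untreated (23.8 ± 1.46 CPM, n = 2) was followed by virgin S-961 (6.57 ± 1.12, n = 3), multipara S-961 (1.83 ± 1.88, n = 4, or 0.958 ± 0.876 without replicate 4) and virgin untreated (0.787 ± 0.0845, n = 2). The ranges of the last 2 groups in this order overlapped. Multipara against virgin, its log2 fold change was 4.92 (SE 0.18) without treatment and -1.83 (SE 0.71) with S-961, or -2.73 without multipara S-961 4.

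S-961 was followed by opposite changes of *Lrrc55* in the groups labelled virgin and multipara. It rose in virgin (log2 fold change 3.06, SE 0.89, adjusted p = 0.0210) and fell in multipara (-3.71, SE 0.70, adjusted p = 0.00241). The average of both effects was -0.33 (SE 0.55, adjusted p = 0.641), or -0.78 without multipara S-961 4 (adjusted p = 0.124, in a range of 0.0683 to 0.826 over 18 alternatives). Without multipara S-961 4 the change in multipara was -4.62 (adjusted p = 0.000604), and over 19 alternatives its adjusted p ran from 1.42e-06 to 0.0204. The rise in virgin lost its call without virgin S-961 1, virgin untreated 1 or virgin untreated 2 (adjusted p = 0.0501, 0.129 and 0.118, in a range of 0.00011 to 0.129 over 19 alternatives). The antisense genes *Gm13716* and *Gm13713* share 266 and 210 exon bases with *Lrrc55* but held 119 and 4 reads over all libraries together.

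*Matn2*, which encodes the matrix protein matrilin-2 (ENSMUSG00000022324, chr15:34306677-34436273, plus strand), was at 21.4 and 19.7 CPM in virgin untreated and 51.4 and 49.99 CPM in multipara untreated islets. With S-961 it was at 132, 143 and 148 CPM in virgin 1 to 3. In multipara S-961 1 to 4 it was at 41.7, 59.2, 27.0 and 115 CPM. The groups did not overlap in either condition, with multipara above virgin without treatment and below virgin with S-961. Virgin S-961 led the order of group means at 141 ± 8.54 CPM (SD, n = 3), multipara S-961 (60.8 ± 38.6, n = 4) and multipara untreated (50.7 ± 0.977, n = 2) overlapped, and virgin untreated was lowest (20.6 ± 1.21, n = 2). Without replicate 4 the mean of multipara S-961 was 42.6 ± 16.1 CPM, below that of multipara untreated. Between virgin and multipara, *Matn2* differed by a log2 fold change of 1.31 (SE 0.09) without treatment and -1.21 (SE 0.40) with S-961, or -1.71 without multipara S-961 4. *Matn2* was higher with S-961 in virgin islets (2.78, SE 0.50, adjusted p = 0.00189) and on average over both labels (1.52, SE 0.33, adjusted p = 0.00265, or 1.26 without multipara S-961 4). In multipara the change was 0.26 (SE 0.43, adjusted p = 0.650), or -0.25 without multipara S-961 4.

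*Tnfrsf11b*, the decoy receptor osteoprotegerin (ENSMUSG00000063727, chr15:54250619-54278484, minus strand), had the largest change with S-961 of the 7 genes in virgin islets and on average, but not in multipara islets, where *Lrrc55* changed more. Untreated islets held 2.75 and 2.50 CPM in virgin and 4.87 and 5.80 CPM in multipara libraries. With S-961, virgin 1 to 3 reached 49.2, 47.7 and 41.0 CPM. The libraries labelled multipara S-961 1 to 4 had 12.8, 15.8, 9.03 and 46.4 CPM. All 7 S-961 libraries were above all 4 untreated ones, and the parity groups overlapped with S-961 through multipara S-961 4 alone. Group means fell in the order virgin S-961 (46.0 ± 4.37 CPM, SD, n = 3), multipara S-961 (21.02 ± 17.1, n = 4), multipara untreated (5.33 ± 0.658, n = 2) and virgin untreated (2.63 ± 0.181, n = 2). Only the first neighbours in this order overlapped, and without replicate 4, at 12.6 ± 3.41 CPM in multipara S-961, these did not overlap either. *Tnfrsf11b* rose with S-961 in virgin (log2 fold change 4.13, SE 0.66, adjusted p = 0.00108), in multipara (1.98, SE 0.58, adjusted p = 0.0213) and on average (3.05, SE 0.44, adjusted p = 0.000213). Without multipara S-961 4 the rise was 1.24 in multipara (adjusted p = 0.00358) and 2.68 on average. It lost its call without multipara untreated 1 or 2 (adjusted p = 0.131 and 0.0853) and in a fit of the multipara libraries alone (adjusted p = 0.0715), in a range of 0.000508 to 0.131 over 19 alternatives. Multipara exceeded virgin by a log2 fold change of 1.02 (SE 0.22) without treatment, and with S-961 the difference was -1.12 (SE 0.47), or -1.85 without multipara S-961 4.

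*B3galt1*, the galactosyltransferase gene (ENSMUSG00000034780, chr2:67565871-68122689, plus strand), was at 1.65 and 1.29 CPM in virgin untreated and 5.27 and 6.30 CPM in multipara untreated islets. Virgin S-961 1 to 3 were at 23.6, 16.5 and 10.8 CPM. Multipara S-961 1 to 4 were at 4.53, 4.74, 3.55 and 17.5 CPM. The untreated groups did not overlap, and among the S-961 libraries only multipara S-961 4 lay inside the virgin range. The means were 17.0 ± 6.43 CPM (SD, n = 3) in virgin S-961, 7.57 ± 6.62 (n = 4) in multipara S-961, 5.79 ± 0.730 (n = 2) in multipara untreated and 1.47 ± 0.251 (n = 2) in virgin untreated islets. Only the lowest group was separated from its neighbour in this order. Without replicate 4 the mean of multipara S-961 was 4.27 ± 0.635 CPM, below that of multipara untreated. *B3galt1* rose with S-961 in virgin islets (log2 fold change 3.53, SE 0.72, adjusted p = 0.00376) and on average (1.96, SE 0.47, adjusted p = 0.00483, or 1.55 without multipara S-961 4). In multipara the change was 0.39 (SE 0.59, adjusted p = 0.627), or -0.44 without multipara S-961 4. Between virgin and multipara, *B3galt1* differed by a log2 fold change of 1.98 (SE 0.25) without treatment and -1.16 (SE 0.53) with S-961, or -1.97 without multipara S-961 4.

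*Rerg*, the Ras-like GTPase gene (ENSMUSG00000030222, chr6:137054825-137170497, minus strand), was at 1.30 and 2.66 CPM in virgin untreated and 5.003 and 3.53 CPM in multipara untreated islets. Virgin S-961 1 to 3 had 20.1, 13.5 and 12.8 CPM. Multipara S-961 1 to 4 had 1.87, 1.80, 2.45 and 15.7 CPM. Multipara S-961 4 was inside the virgin S-961 range, whereas replicates 1 to 3 were within the range of virgin untreated islets. The means were 15.5 ± 4.001 CPM (SD, n = 3) in virgin S-961, 5.46 ± 6.85 (n = 4) in multipara S-961, 4.27 ± 1.04 (n = 2) in multipara untreated and 1.98 ± 0.961 (n = 2) in virgin untreated islets. The untreated groups did not overlap, while multipara S-961 overlapped both of its neighbours. Without replicate 4 the mean of multipara S-961 was 2.04 ± 0.352 CPM, below that of multipara untreated.

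*Rerg* rose with S-961 in virgin islets (log2 fold change 2.96, SE 0.96, adjusted p = 0.0325) and on average (1.66, SE 0.63, adjusted p = 0.0457). In multipara its change was 0.35 (SE 0.82, adjusted p = 0.760), and without multipara S-961 4 *Rerg* fell (-1.07, SE 0.33, adjusted p = 0.0328, in a range of 0.0328 to 0.943 over 18 alternatives). The virgin call was lost without virgin S-961 1 or 2 or either virgin untreated library (adjusted p = 0.0772, 0.0553, 0.197 and 0.107, in a range of 0.000277 to 0.197). The average call was lost without any 1 of the virgin or untreated libraries (adjusted p = 0.0580 to 0.154) and was at 0.00925 without multipara S-961 4, where the average change was 0.95. Between virgin and multipara, *Rerg* differed by a log2 fold change of 1.12 (SE 0.45) without treatment, or 0.69 to 1.72 with single libraries left out. With S-961 it was -1.50 (SE 0.72), or -2.89 without multipara S-961 4.

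*Ehhadh*, the peroxisomal bifunctional enzyme (ENSMUSG00000022853, chr16:21761287-21787807, minus strand), changed less and with a narrower spread. Untreated libraries were at 12.6 and 9.84 CPM in virgin and 12.0 and 14.4 CPM in multipara. Virgin S-961 1 to 3 were at 26.9, 27.4 and 21.3 CPM. Multipara S-961 1 to 4 were at 17.1, 21.5, 16.4 and 23.3 CPM. Every S-961 library was above every untreated library, and the parity groups overlapped in both conditions. The order of group means was virgin S-961 (25.2 ± 3.41 CPM, SD, n = 3), multipara S-961 (19.6 ± 3.37, n = 4, or 18.3 ± 2.78 without replicate 4), multipara untreated (13.2 ± 1.70, n = 2) and virgin untreated (11.2 ± 1.95, n = 2), with a gap only between the S-961 and the untreated groups. *Ehhadh* rose with S-961 in virgin (log2 fold change 1.17, SE 0.20, adjusted p = 0.00166), in multipara (0.57, SE 0.19, adjusted p = 0.0377) and on average (0.87, SE 0.14, adjusted p = 0.000443), and by 0.48 in multipara and 0.82 on average without multipara S-961 4. The call in multipara was lost in 8 of 19 alternatives, among them the fits without virgin S-961 1 or 2, multipara S-961 2 or 4 (adjusted p = 0.0522, 0.0507, 0.0505 and 0.0729) or multipara untreated 1 or 2 (adjusted p = 0.248 and 0.0718), in a range of 0.0187 to 0.341. Multipara differed from virgin by 0.24 (SE 0.18) without treatment, or 0.07 to 0.42 with single libraries left out, and by -0.35 (SE 0.16) with S-961, or -0.43 without multipara S-961 4.

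*Ivd*, the enzyme of leucine breakdown (ENSMUSG00000027332, chr2:118861954-118882909, plus strand), was nearly level. It was at 103 and 93.2 CPM in virgin untreated and 101 and 113 CPM in multipara untreated islets. Virgin S-961 1 to 3 had 107, 120 and 121 CPM, and multipara S-961 1 to 4 had 93.6, 148, 125 and 100.3 CPM. All neighbouring groups overlapped, with means of 117 ± 24.7 (SD, n = 4, or 122 ± 27.2 without replicate 4) in multipara S-961, 116 ± 7.56 (n = 3) in virgin S-961, 107 ± 8.83 (n = 2) in multipara untreated and 97.9 ± 6.77 CPM (n = 2) in virgin untreated islets. The log2 fold change with S-961 was 0.24 in virgin (SE 0.19, adjusted p = 0.336), 0.13 in multipara (SE 0.18, adjusted p = 0.591) and 0.18 on average (SE 0.13, adjusted p = 0.247), and none passed the test. Without multipara S-961 4 it was 0.19 in multipara and 0.22 on average. Multipara differed from virgin by 0.13 (SE 0.09) without treatment and 0.03 (SE 0.17) with S-961, or 0.10 without multipara S-961 4.

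**Figure D2:**
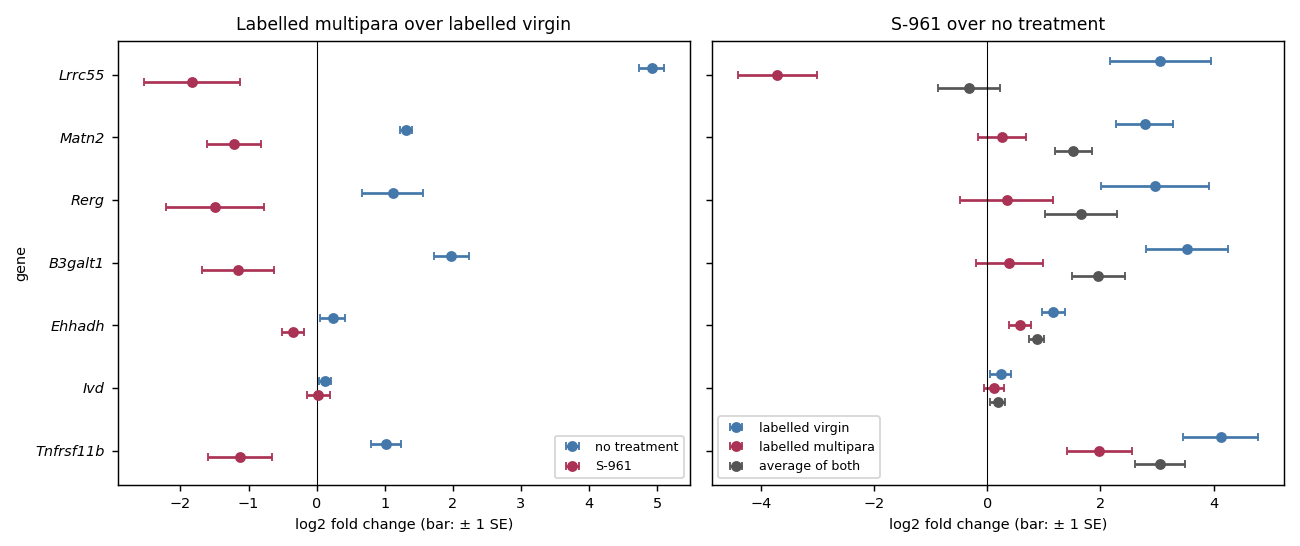
Log2 fold change of the 7 genes with its standard error, for S-961 over no treatment and for multipara over virgin. The changes of *Lrrc55* with S-961 were 3.06 in virgin and -3.71 in multipara, and the difference between them was not tested.

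Read over all 7 genes, 6 were called higher with S-961 in islets labelled virgin and 0 lower, where 18.8% of the 17996 genes tested were higher and 17.6% lower. In islets labelled multipara, *Ehhadh* and *Tnfrsf11b* were called higher and *Lrrc55* lower, beside 18.2% of all genes higher and 19.4% lower. Averaged over both labels, *Matn2*, *Rerg*, *B3galt1*, *Ehhadh* and *Tnfrsf11b* rose and 0 fell, beside 26.1% higher and 25.9% lower. Without multipara S-961 4, the multipara comparison called *Tnfrsf11b* higher and *Lrrc55* and *Rerg* lower, and the average still called the same 5 genes higher. The calls within each label use group levels that were known when the genes were picked.

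The differences between virgin and multipara were among the values on which the genes were picked, and their counts are given for description only. Without treatment the multipara libraries both exceeded the virgin ones for 5 of the 7 (*Lrrc55*, *Matn2*, *Rerg*, *B3galt1* and *Tnfrsf11b*) and below for 0, beside 17.3% of 15812 genes above and 18.8% below. With S-961 the 4 libraries labelled multipara all lay below the 3 labelled virgin for *Lrrc55* and *Matn2* and above for 0 of 7, beside 3.64% of 16784 genes below and 5.23% above. Both patterns together held for *Lrrc55* and *Matn2* and for 0.742% of 15355 genes. Without multipara S-961 4, the multipara libraries were below the virgin ones for 5 of the 7 (*Lrrc55*, *Matn2*, *Rerg*, *B3galt1* and *Tnfrsf11b*), beside 10.9% of all genes. Stromal markers moved with the S-961 parity difference (6 of 8 higher in libraries labelled multipara at an unadjusted p under 0.05 in edgeR), as did the proliferation markers (6 of 6 higher). Alpha-cell markers (3 of 4) and acinar markers (3 of 8) were also higher there at this threshold. Without treatment, 3 of 4 alpha-cell and 1 of 2 delta-cell markers were lower in multipara, and 3 of 8 acinar markers were higher. The part of these markers in the parity differences was not tested. All these directions with S-961 rest on the labels.

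Genes of the same pathways and families were read from 8 lists with 70 genes, of which 62 could be tested for S-961. Averaged over both labels, 13 of them rose and 16 fell, where 26.1% of all genes tested were higher and 25.9% lower. The same 29 genes were called without multipara S-961 4, and *Bcat1* alone among them then moved by over 1.5 times. In the list of the lactogen receptor, the STAT5 cascade and its targets, 4 of 12 rose and 2 fell (median log2 fold change 0.42, against -0.01 over all genes). The prolactin receptor *Prlr*, with the most counts in the list, rose by 0.94 (SE 0.19, adjusted p = 0.00168), from 153 to 260 CPM without to 308 to 553 CPM with S-961. *Socs3*, a feedback inhibitor of cytokine signalling, rose by 1.71 (SE 0.29, adjusted p = 0.000672), and the transcriptional repressor *Bcl6* fell (-1.11, SE 0.29, adjusted p = 0.00905). *Tph1*, the serotonin enzyme gene, passed the test (adjusted p = 0.000638) from 0 CPM in both virgin untreated libraries and 0.402 and 0.378 CPM in multipara untreated to 0.591 to 4.53 CPM with S-961, so that no fold is given.

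**Figure D3:**
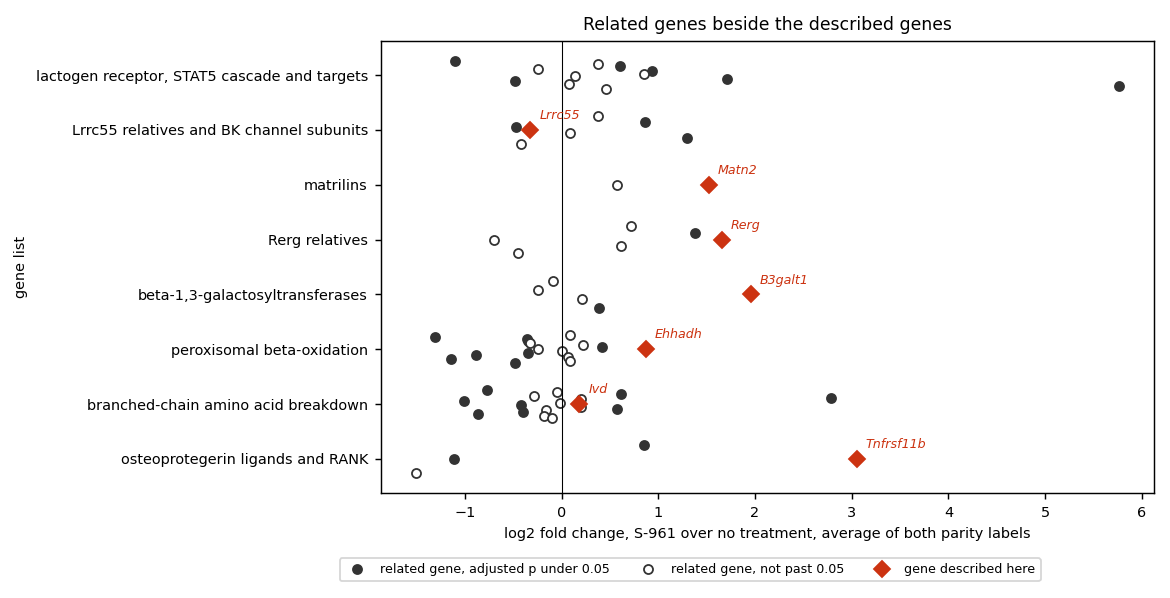
Log2 fold change with S-961, averaged over both parity labels, of the tested genes in 8 lists of related genes (filled where the adjusted p was under 0.05) and of the 7 genes (diamonds). *Tnfrsf11b* lay at 3.05 beside *Tnfsf10* at -1.11, and *Ehhadh* at 0.87 in a list where 7 of 15 genes fell.

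Relatives of the 7 genes did not move as one with them. Their counts, averaged over both labels, stand beside 26.1% of all genes higher and 25.9% lower with S-961. Among the relatives of *Lrrc55* and the BK channel subunits, 2 of 6 rose and 1 fell (median 0.23). *Lrrc26*, a sister subunit, rose by 1.29 (SE 0.35, adjusted p = 0.0104) and the accessory subunit *Kcnmb1* by 0.86 (SE 0.24, adjusted p = 0.0123), while *Kcnmb2*, with the most counts, fell (-0.47, SE 0.16, adjusted p = 0.0293). Of the other 3 matrilin genes, *Matn1* and *Matn3*, named after their values were seen, had 0 reads in every library, and 1 was tested, *Matn4* at 0.0309 to 0.325 CPM (0.58, SE 0.68, adjusted p = 0.495). Of 5 tested relatives of *Rerg* 1 rose, the GTPase *Rasl10b* (1.38, SE 0.26, adjusted p = 0.00127, list median 0.62). Of 4 β-1,3-galactosyltransferase genes 1 rose, *B3galt6* (0.39, SE 0.12, adjusted p = 0.0179, list median 0.06), and *B3galt5*, with the most counts, was at 0.21 (SE 0.13, adjusted p = 0.191).

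The lists around *Ehhadh* and *Ivd* held both higher and lower genes. Of 15 genes of peroxisomal β-oxidation 7 fell and 1 rose (median -0.32). They included the transporter *Abcd2* (-1.31, SE 0.30, adjusted p = 0.00400), the peroxisome proliferation gene *Pex11a* (-1.15, SE 0.13, adjusted p = 4.1e-05), the isomerase *Ech1* (-0.89, SE 0.08, adjusted p = 1.1e-05) and the transporter *Abcd3*, with the most counts (-0.35, SE 0.10, adjusted p = 0.0126). Of 16 genes of branched-chain amino acid breakdown 5 fell and 3 rose (median -0.13). *Bckdha*, a subunit of the branched-chain ketoacid dehydrogenase, fell (-1.01, SE 0.08, adjusted p = 1e-05), and *Acadsb*, with the most counts, was at -0.05 (SE 0.10, adjusted p = 0.699). The cytosolic aminotransferase *Bcat1* rose by 2.79 (SE 0.99, adjusted p = 0.0357), or 1.54 without multipara S-961 4 (SE 0.41, adjusted p = 0.0109). Its levels were 16.9, 5.70 and 14.2 CPM in virgin S-961 1 to 3, 0.569, 1.08, 0.489 and 14.0 CPM in multipara S-961 1 to 4, 0.536 and 0.242 CPM in virgin untreated and 3.31 and 1.89 CPM in multipara untreated islets, so that multipara S-961 4 again lay inside the virgin S-961 range.

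Of the ligands of osteoprotegerin and the receptor RANK, 1 of 3 rose and 1 fell (median -1.11). The RANK gene *Tnfrsf11a* rose by 0.85 (SE 0.20, adjusted p = 0.00490) and the TRAIL gene *Tnfsf10*, with the most counts, fell (-1.11, SE 0.27, adjusted p = 0.00561). Between virgin and multipara, edgeR called 0 of 57 tested genes of the 8 lists without treatment (5 at an unadjusted p under 0.05) and 0 of 59 with S-961 (1 at an unadjusted p under 0.05), and DESeq2 also called 0 in each.

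The genes whose levels over the 11 libraries were most like those of each described gene were picked by Pearson's r of log2 CPM among 13970 genes. These values are a description, since the libraries share groups, depth and the step with S-961. *Tnfrsf11b* was followed most closely by *Gabra4*, a GABA-A receptor subunit (r = 0.996), and *Scrt1*, a zinc-finger repressor (r = 0.992). *Ehhadh* had *Nceh1* (0.983) and *Lrch2* (0.976), *B3galt1* had *Shtn1* (0.971) and *Palld* (0.965), *Matn2* had *Tpgs2* (0.969) and *Tbc1d4* (0.963), and *Rerg* had *Mctp1* (0.966) and *Gpr26* (0.959). *Lrrc55* and *Ivd* had looser companions, with *Gm10382* (0.914) and *Tspan14* (0.890) for *Lrrc55* and *Rpe* (0.854) and the low *Tph2* (0.851, 1.45 to 6.93 CPM) for *Ivd*. *Gabra4* was at 17.1, 13.6 and 14.4 CPM in virgin S-961, 4.93, 6.55, 3.32 and 18.7 CPM in multipara S-961 1 to 4, and 0.967 to 2.23 CPM without treatment, so that it too set multipara S-961 4 beside the virgin libraries.

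**Figure D4:**
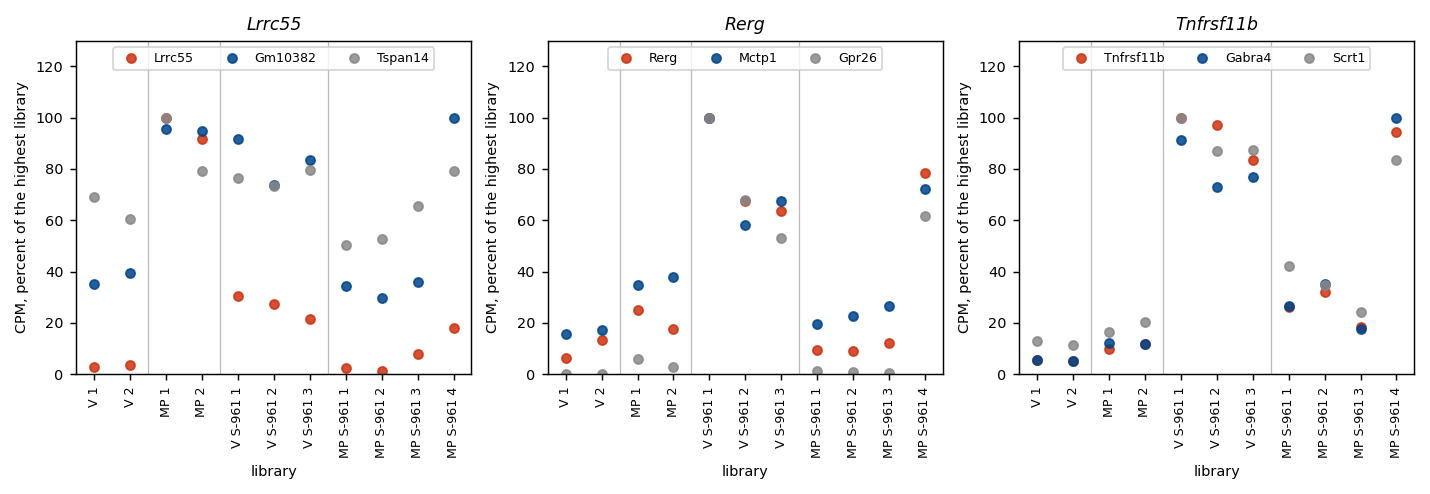
CPM as percent of the highest library for *Lrrc55*, *Rerg* and *Tnfrsf11b* and the 2 genes most like each, in the 11 libraries (V, virgin, and MP, multipara). *Gpr26* was at 0 to 1.30 CPM without treatment and at 13.3 CPM in multipara S-961 4, between 11.5 and 21.6 CPM of virgin S-961.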

How the data were processed

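The authors deposited 1 file per library with raw estimated counts, or expected counts, for each gene. The labels and methods give strand-specific libraries of poly(A) RNA, and the submitters' processing notes name STAR, RSEM and the build GRCm38 (mm10), with versions and the strand setting of the counting not given in the sources used here. All 55536 genes matched GENCODE M21 by identifier and symbol. Counts were rounded to whole numbers.

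Samples were grouped by the labels. Genes were filtered with filterByExpr (minimum count 10, minimum total count 15), scaled by TMM and tested with the quasi-likelihood test of edgeR 4.0.16 in R 4.3.3, with Benjamini-Hochberg adjustment over all genes and a threshold of 0.05. S-961 was tested in a fit of all 11 libraries, within each parity label and as the mean of both effects, and virgin against multipara within each treatment on its own libraries. Over all genes, edgeR called 0 between virgin and multipara in either treatment (889 and 1630 at an unadjusted p under 0.05). SD is over libraries. Alternatives were DESeq2 1.42.0 (size factors, Wald test), RLE scaling, total counts, insulin genes left out, other filters, a replicate block and single libraries left out. Added after seeing the data were a fit without multipara S-961 4 and multipara untreated 1, and more alternatives for the described and related genes. The fits were tested on simulated data. The 11 replicate pairs differed beyond counting noise (chi-square per gene 8.89 to 116), so each library counted once.

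The described genes, the lists of related genes and the cell type markers were chosen with earlier results of these data known. Beyond the 7 genes, the text names, in each related list, at most the 3 genes with the largest change among those past the threshold for S-961 on average and the gene with the highest mean CPM, and the 2 genes most like each described gene (log2 CPM, prior count 2, mean of at least 0), besides *Mki67*, *Ins1*, *Ins2* and marker genes that move with a result. *Matn1*, *Matn3* and *Esr1* were named after their values were seen, and *Gm13716* and *Gm13713* for their overlap with *Lrrc55*. A gene picked by this rule is not reported here. Tables and figures used matplotlib 3.10.9, numpy 2.4.6 and pandas 2.3.3 in Python 3.11.15.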

Additional observations from a re-analysis of the deposited data

Results flagged for a closer look

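In the group of 4 libraries labelled multipara S-961, replicate 4 was far from the other 3 for *Rerg*, at 15.7 CPM against 1.80 to 2.45 CPM, and for *B3galt1*, at 17.5 CPM against 3.55 to 4.74 CPM. The gap to the nearest library was 0.954 and 0.914 of the whole range of the group. Chance marks about 1 in 20 groups in this way, and both marks rest on the same library.

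*Lrrc55* and *Matn2* differed between libraries labelled virgin and multipara in opposite directions without and with S-961, with all libraries on the same side in each condition. The direction with S-961, and so the reversal, rests on labels that may be exchanged, which was not tested. On the log2 scale multipara differed from virgin by 4.92 and -1.83 for *Lrrc55* and 1.31 and -1.21 for *Matn2*. The difference between these effects was not tested, since the genes were picked with these levels known.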

How the results depend on the processing

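The 6 described genes called for S-961 in virgin islets were 4 to 6 with single libraries left out, and the 5 on average were 4 to 5. In multipara islets the count of 3 was 1 to 3 with single libraries left out (1 without multipara untreated 1 or 2) and 1 in a fit of the multipara libraries alone, with fewer samples. *Rerg* in multipara ran from -1.07 to 0.67 with single libraries left out and reversed to -1.07 without multipara S-961 4. DESeq2 gave no adjusted p for *Rerg* with S-961. The genes without overlap between virgin and multipara with S-961 were 2 to 5 with single libraries left out (4 without virgin S-961 3, 5 without multipara S-961 4). Related genes called between virgin and multipara, 0 in each treatment, were 0 to 8 without treatment (8 without multipara untreated 2, 1 without multipara untreated 1) and 0 to 2 with S-961 (2 without multipara S-961 4). With a replicate block, 2 related genes were called with S-961, and multipara differed from virgin by a log2 fold change of -3.03 for *Lrrc55*, -2.88 for *Rerg*, -1.91 for *B3galt1* and -1.88 for *Tnfrsf11b*. Same-numbered libraries did not all deviate together (r from -0.15 to 0.28 over 13 pairs, 5 over 0.1, with 7 of 10 libraries correlating best with a library of their own number). In groups of 2 libraries the deviations mirror each other, so these values cannot decide on pairing. The labels name no pairs, and the numbers were not taken as pairs. The cause of these shifts was not tested. Precision was limited by 2 untreated libraries per group and, for *Lrrc55*, by as few as 11 reads in a library.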

Other observations

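*Esr1*, the oestrogen receptor gene in the list of *Rerg* relatives, is named here after its values were seen. It was at 4.64, 3.08 and 2.20 CPM in virgin S-961 1 to 3 and at 0.271, 0.291, 0.412 and 4.14 CPM in multipara S-961 1 to 4. Without treatment it was at 0.612 and 0.766 CPM in virgin and 2.37 and 2.14 CPM in multipara islets. As for *Rerg*, multipara was above virgin without treatment and multipara S-961 4 lay inside the virgin S-961 range. Its average change with S-961 did not pass the test in edgeR (log2 fold change 0.72, SE 0.73, adjusted p = 0.429).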
